A study of Mus musculus with 2 samples.

Results

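Ferritin and iron handling genes were described as a set of 10 genes named by symbol: Ftl1 and Fth1 (iron storage), Tfrc, Trf and Slc11a2 (uptake), Slc40a1 (export), Ireb2 and Aco1 (regulators), and Pcbp1 and Pcbp2 (iron chaperones). All 10 were found by Ensembl identifier among 43309 nuclear mouse genes, by name and not by a threshold on a measured value. They were measured in the hindbrain of 2 newborn mice of strain B6NCrl at postnatal day 0, labelled pup 1 (replicate 1) and pup 3 (replicate 2). Libraries started at 13 pg of RNA above 200 nt in size, an amount given as 1 cell-equivalent, and were labelled as total RNA with a Smart-seq protocol, so the values are those of mixed tissue RNA at a very small input. Both pups carried the same donor record and neither was treated. They form 1 group, with 1 library per pup, so that a difference between pups has no replicate check and no p-value was computed. The SD over the 2 libraries includes any technical spread of so small an input.

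Iron reaches most cells bound to transferrin, which is taken up by the transferrin receptor, and leaves endosomes through a metal transporter. What is not used is stored inside ferritin, a shell of light and heavy chains, or leaves the cell through ferroportin. The iron regulatory proteins IRP1 and IRP2 bind a stem-loop called the iron-responsive element when iron is scarce; bound near the start of an mRNA they hold back its translation, and bound in the 3' untranslated region of the transferrin receptor mRNA they protect it from decay. In the brain, transferrin receptor on capillary cells and transferrin made by choroid plexus and oligodendrocytes are the textbook parts of this supply.

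The elements themselves are shown first, since they decide how the transcripts below are read. Reference transcripts (GENCODE M21, GRCm38) were searched on the sense strand for C, any 5 bases, CAGTGN and 5 bases that pair with the first 5, with G-T pairs allowed. Each window below is 27 nt, 5' to 3', and capitals mark the 6-base loop.
Fth1, 5' UTR, chr19:9982733-9982759, + strand: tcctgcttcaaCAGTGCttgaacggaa
Ftl1, 5' UTR, chr7:45459780-45459806, - strand: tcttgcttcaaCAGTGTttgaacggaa
Slc40a1, 5' UTR, chr1:45925466-45925492, - strand: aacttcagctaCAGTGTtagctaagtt
Tfrc, 3' UTR, chr16:32631220-32631246, + strand: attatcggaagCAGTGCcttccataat
Tfrc, 3' UTR, chr16:32631599-32631625, + strand: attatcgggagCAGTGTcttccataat
Tfrc, 3' UTR, chr16:32631664-32631690, + strand: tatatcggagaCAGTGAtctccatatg
Tfrc, 3' UTR, chr16:32631711-32631737, + strand: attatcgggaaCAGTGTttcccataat
Slc11a2, 3' UTR, chr15:100395154-100395180, - strand: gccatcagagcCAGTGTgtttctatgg

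The first 7 windows pair at all 5 stem positions, and the Slc11a2 window pairs at 4 of 5. The Fth1 and Ftl1 windows were the same at 25 of 27 positions. Over 21901 protein-coding genes, a match with all 5 pairs lay in the 5' UTR of 30 genes (0.137%) and in the 3' UTR of 129 (0.589%), and at least 4 pairs were found in the 3' UTR of 3.98%. Pcbp2 had a 4-pair match across an exon junction in 4 reference transcripts, of which Pcbp2-203 was listed in the deposited tables, at 0 counts in both pups. Trf, Ireb2, Aco1 and Pcbp1 held no match, which says only that these letters are absent from their reference transcripts. A match is a description and not a measured binding site.

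The ferritin genes dominated the set. Levels below are TPM (abundance per length) rescaled to a common total over nuclear genes, with expected counts, the read estimates behind them. The libraries held 35462381 expected counts in pup 1 and 29866728 in pup 3, of which 33462210 and 28285749 lay on nuclear genes. CPM are counts scaled to this nuclear total. On that scale 3 counts, the limit a count of 0 allows, correspond to 0.0897 CPM in pup 1 and 0.106 CPM in pup 3. Of the 10 genes, 8 were detected (an expected count of at least 5) in both pups and the other 2 in 1 pup each, beside 37.8% of all 21461 protein-coding genes detected in both.

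**Figure D1:**
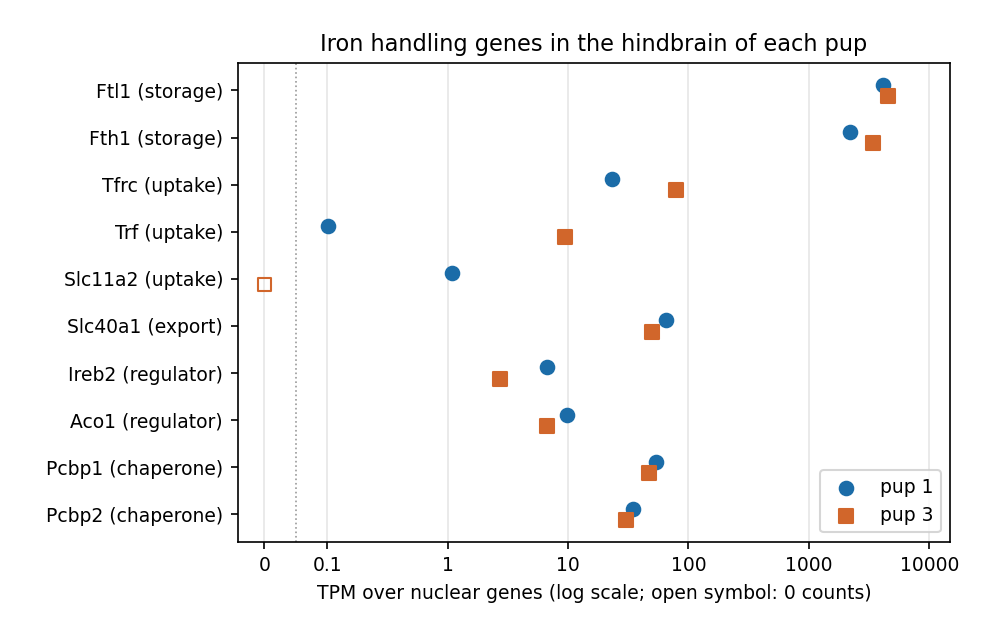
TPM over nuclear genes (log scale) of each of the 10 genes, ordered by role, with a circle for pup 1 and a square for pup 3; the open symbol stands for 0 counts. Ftl1 and Fth1 lie between 2199 and 4577 TPM, the other 8 genes at 78.5 TPM or below, and Trf and Slc11a2 are the genes whose pups lie farthest apart.

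Ftl1, the ferritin light chain, which helps form the iron core, reached 4146 TPM in pup 1, against 4577 TPM in pup 3 (4362 ± 305, SD, n = 2). These levels rested on 74255 and 72494 expected counts and placed Ftl1 at rank 7 among protein-coding genes in pup 1 and rank 6 in pup 3. Fth1, the heavy chain, which oxidises ferrous iron, reached 2199 TPM in pup 1, against 3409 TPM in pup 3 (2804 ± 855, SD, n = 2), at ranks 27 and 13. The log2 ratio of pup 1 over pup 3, taken on log2(TPM + 1), which understates differences of low genes, was -0.14 for Ftl1 and -0.63 for Fth1. The light chain was nearly level between the pups, and the heavy chain was lower in pup 1, short of 2-fold.

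Together the ferritin chains gave 6346 TPM in pup 1, against 7986 TPM in pup 3 (7166 ± 1160, SD, n = 2), which is 0.635% and 0.799% of all nuclear TPM. They made up 97.0% of the summed TPM of the 10 genes in pup 1 and 97.3% in pup 3. The other 8 genes summed to 194 TPM in pup 1, against 225 TPM in pup 3. Within a library, where scaling cancels, Ftl1 stood above Fth1 in TPM by a ratio of 1.89 in pup 1 and 1.34 in pup 3. The log2 ratio of Fth1 over Ftl1 was -0.91 in pup 1 and -0.43 in pup 3 (mean -0.67 ± 0.35, SD, n = 2), so the light chain was the more abundant message in both pups and by less in pup 3.

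The transcript that carries the element took nearly all of ferritin. Ftl1-201, of 968 nt, held 97.5% of the TPM of Ftl1 in pup 1 and 98.7% in pup 3, and Fth1 was listed with 1 transcript, Fth1-201. Its deposited length of 866 nt is shorter than the 929 nt of the later reference in which the element was found. Ferritin has many processed copies in the genome, and reads shared with them were split by estimate. Of 7 genes that matched Ftl1 at 90% identity or more over at least 200 nt, Ftl1-ps1 was 99.6% identical over 910 nt and was assigned 1602 counts in pup 1 and 1313 in pup 3. The 7 copies added 3.04% to the TPM of Ftl1 in pup 1 and 1.99% in pup 3, and the 1 copy of Fth1, Gm6977, added 0.258% and 0.240%. The split of reads between Ftl1 and each copy is therefore uncertain. The posterior SD deposited for Ftl1 was 71.2 counts in pup 1 and 59.1 in pup 3, small beside its own counts. No read was counted on Ftmt, the mitochondrial ferritin, in either pup.

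Of the 3 uptake genes, the transferrin receptor alone was detected in both pups. Tfrc, which binds iron-loaded transferrin at the cell surface, had 23.2 TPM in pup 1, against 78.5 TPM in pup 3 (50.8 ± 39.1, SD, n = 2), on 2086 and 2833 expected counts. Its log2 ratio of pup 1 over pup 3 was -1.72, a TPM 3.39-fold higher in pup 3. As a share of nuclear counts the gene was 1.61-fold higher in pup 3 (95% exact counting interval 1.52 to 1.70, which covers counting error only). The per-length value and the count share thus gave the same direction and different sizes.

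The transcript tables show where the sizes part. In pup 1 the reads of Tfrc were assigned to Tfrc-201, the coding transcript of 4890 nt (1547 counts), and to Tfrc-204, a retained-intron transcript of 3527 nt (539 counts). In pup 3 they were spread over Tfrc-201 (1200 counts), Tfrc-204 (1091 counts), Tfrc-202 (183 counts, 1860 nt, coding) and Tfrc-205, a retained-intron transcript of 571 nt (359 counts). Tfrc-205 had 0 counts in pup 1. In pup 3 it held 12.7% of the counts of Tfrc and, being short, 53.1% of the TPM, and the length used for the gene was 4443 nt in pup 1 and 2074 nt in pup 3. Tfrc-201 and Tfrc-204 both hold the 4 elements printed above, and Tfrc-202 and Tfrc-205 hold none. Over the element-bearing transcripts alone, Tfrc had 23.2 TPM in pup 1 and 31.1 TPM in pup 3, a log2 ratio of -0.41. Over its coding transcripts alone it had 15.6 TPM in pup 1 and 19.4 TPM in pup 3, a log2 ratio of -0.30, which is within 2-fold. The element-bearing transcripts held all of its counts in pup 1 and 80.8% in pup 3.

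**Figure D2:**
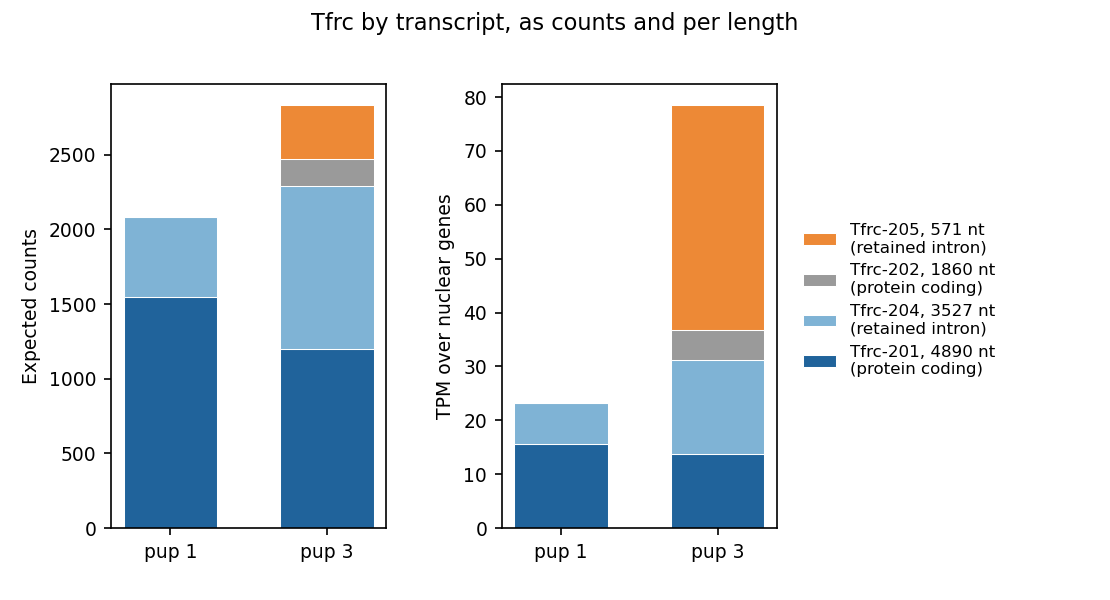
Tfrc split by transcript in pup 1 (left bar) and pup 3 (right bar), in expected counts (left panel) and in TPM over nuclear genes (right panel); colours name the transcripts with their lengths. The 571 nt Tfrc-205 is a thin slice of the counts of pup 3 (359) and the largest slice of its TPM (41.7), and has 0 counts in pup 1.

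Trf, which encodes transferrin itself, had 1 expected count in pup 1 (0.102 TPM) and 344 in pup 3 (9.39 TPM), with a log2 ratio of -3.24 on log2(TPM + 1). As a share of nuclear counts it was 407-fold higher in pup 3, with a 95% exact counting interval of 72.6 to 16120. That interval covers counting error only and not the technical spread of so small an input, and the ratio rests on 1 count in pup 1. In pup 3 the message was split over Trf-201 (57.2% of the TPM of Trf), Trf-208 (23.0%) and Trf-203 (18.4%), and the 1 count of pup 1 lay on Trf-206. Trf shares 1517 identical nt with Gm20425, which was listed at 0 counts in both pups, and the posterior SD deposited for Gm20425 in pup 3 was 23.1 counts, so the reads of that stretch could not be assigned with certainty.

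In RNA of a whole tissue, fewer cells of a type and less RNA per cell cannot be told apart. Cell types known to make Trf were therefore set beside it. All 8 oligodendrocyte and myelin markers had counts in pup 1 and 5 of 8 in pup 3, with summed levels of 563 TPM in pup 1, against 294 TPM in pup 3, and Mobp, Mog and Sox10 were at 0 in pup 3. Of 8 choroid plexus markers, 5 were detected in both pups, the sums were 3306 TPM in pup 1, against 3687 TPM in pup 3, most of it Ttr, and Kl and Clic6 were at 0 in both pups. The other choroid plexus markers went both ways, since Kcnj13 had 60.1 TPM in pup 1, against 0 in pup 3, and Otx2 had 0.113 TPM in pup 1, against 85.1 TPM in pup 3, the direction of Trf. Of 8 liver markers, Alb, Afp, Ahsg, Fgb, Hpx and Serpina1a were at 0 in both pups, and the sums, 4.48 TPM in pup 1 and 77.1 TPM in pup 3, came from Apoa1 and Hp. Summed oligodendrocyte markers were higher in pup 1, where Trf was near 0. Of the 6 with at least 50 expected counts in a library, 3 were at least 2-fold higher in pup 1 and 0 in pup 3. Cldn11 leaned the way of Trf, short of 2-fold (log2 ratio -0.91), and Mag was nearly level (-0.007). Choroid plexus sums, carried by Ttr, were close. The liver sums, from Apoa1 and Hp alone, were higher in pup 3, as Trf was. The part of these cells in the level of Trf was not tested.

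For Tfrc the same was done with erythroid and endothelial markers. Of 7 matched erythroid markers, the 4 globin genes were detected in both pups, the sums were 1486 TPM in pup 1, against 3941 TPM in pup 3, Slc4a1 had 0 counts in pup 1, against 1 in pup 3, and Alas2 was at 0 in pup 3. Endothelial markers summed to 201 TPM in pup 1, against 218 TPM in pup 3, with 3 of 8 detected in both pups, Flt1 at 0 in pup 1 and Slco1c1 at 0 in pup 3. Globin RNA and Tfrc were both higher in pup 3, and the part of blood cells in the level of Tfrc was not tested. As a check on nervous tissue, which does not identify the hindbrain, 8 of 8 neuron markers were detected in both pups, with sums of 7316 TPM in pup 1, against 5093 TPM in pup 3.

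Slc11a2, the endosomal metal transporter DMT1, had 97 expected counts in pup 1 (1.08 TPM) and 0 in pup 3. Taking 3 counts as the floor in pup 3, its share of nuclear counts was 27.3-fold higher in pup 1. The exact 95% counting interval of the ratio, which covers counting error only, had a lower limit of 21.8. All 97 counts were assigned to Slc11a2-205, the 4415 nt transcript with the 3' UTR window printed above, and the other 7 listed transcripts had 0. At so low a level the log2 ratio on log2(TPM + 1) was 1.06, just past 2-fold, and it depends on the pseudocount of 1.

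The export gene lay within 2-fold between pups. Slc40a1, which encodes ferroportin, the iron exporter, had 65.3 TPM in pup 1, against 49.6 TPM in pup 3 (57.5 ± 11.0, SD, n = 2), on 4423 and 2966 expected counts, with a log2 ratio of 0.39. It was the highest of the 8 genes outside ferritin by mean TPM, at ranks 2636 and 3481 among protein-coding genes. Slc40a1-201, with the 5' UTR element, held all of its counts in pup 1 and 99.96% in pup 3. Within a library Slc40a1 stood to Tfrc at a TPM ratio of 2.82 in pup 1 and 0.632 in pup 3, so their order changed between pups. By expected counts, which are not per length, the ratios were 2.12 in pup 1 and 1.05 in pup 3. Macrophages are known for high ferroportin; the 9 microglia and macrophage markers summed to 257 TPM in pup 1, against 194 TPM in pup 3, 3 of 9 were detected in both pups, P2ry12 and Cx3cr1 were at 0 in pup 1 and Csf1r, Aif1, Trem2 and Tyrobp at 0 in pup 3, and their part in the level of Slc40a1 was not tested.

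Both iron regulatory proteins had low messages, the higher level in pup 1 for each. Aco1 encodes IRP1, which is a cytosolic aconitase when it carries an iron-sulfur cluster, and had 9.76 TPM in pup 1, against 6.65 TPM in pup 3 (8.20 ± 2.19, SD, n = 2). Ireb2 encodes IRP2, which is degraded when iron is plentiful, and had 6.67 TPM in pup 1, against 2.70 TPM in pup 3 (4.69 ± 2.81, SD, n = 2), on 789 and 282 expected counts. The log2 ratios of pup 1 over pup 3 were 0.49 for Aco1 and 1.05 for Ireb2. Aco1 stood above Ireb2 within each library, at a TPM ratio of 1.46 in pup 1 and 2.46 in pup 3. Ireb2 was listed with 1 transcript, and Aco1-201 held 95.9% of the TPM of Aco1 in pup 1 and 100% in pup 3.

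The poly(rC)-binding proteins, which carry iron to ferritin and also bind RNA, lay close between pups. Pcbp1, a gene without introns in its annotated transcript, had 53.6 TPM in pup 1, against 47.2 TPM in pup 3 (50.4 ± 4.56, SD, n = 2). Pcbp2 had 34.8 TPM in pup 1, against 30.6 TPM in pup 3 (32.7 ± 2.98, SD, n = 2). Both log2 ratios were 0.18, and Pcbp1 over Pcbp2 was 1.54 in TPM in each library. Pcbp2 lies on the + strand and shares 1576 identical nt with transcripts of Map3k12 on the - strand, which had 1476 counts in pup 1 and 988 in pup 3. The use of strand in counting is not stated in the sources at hand. The posterior SD deposited for Pcbp2 was 4.06 counts in pup 1 and 4.99 in pup 3. For Map3k12 it was 6.47 in pup 1 and 5.28 in pup 3. These are small beside the counts of each gene, so the deposited estimate left little doubt about the split. The related Pcbp3 had 106 TPM in pup 1, against 94.3 TPM in pup 3, and Pcbp4 147 TPM in pup 1 and 103 TPM in pup 3, both above Pcbp1 and Pcbp2.

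Ordered by mean TPM, Ftl1 and Fth1 were separate from each other and from the rest in both pups. By mean TPM, Slc40a1, Tfrc, Pcbp1, Pcbp2, Aco1, Trf, Ireb2 and Slc11a2 followed. Overlapping neighbours were Slc40a1 and Tfrc, Tfrc and Pcbp1, Aco1 and Trf, and Trf and Ireb2, and the order did not hold in each pup: in pup 1, Tfrc lay below Pcbp2 and Trf below Slc11a2. Of the 10 genes, 2 were at least 2-fold higher in pup 1 (Slc11a2 and Ireb2) and 2 at least 2-fold higher in pup 3 (Tfrc and Trf). Among 12300 nuclear genes reaching 50 expected counts in 1 library or more, 34.7% were at least 2-fold higher in pup 1 and 27.9% at least 2-fold higher in pup 3. Trf and Slc11a2 passed that count minimum through 1 pup alone, a filter that favours a difference, so their calls were partly set in advance. The median log2 ratio was 0.18 over the 10 genes and 0.16 over the 12300.

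Differences between pups shrank with level across all genes. Of 2750 such genes with a mean between 1 and 10 TPM, 87.7% differed at least 2-fold. So did 2 of the 3 described genes in that range (Trf and Ireb2, but not Aco1). Between 10 and 100 TPM the share was 60.5% of 6397 genes, and 1 of 4 described genes (Tfrc, but not Slc40a1, Pcbp1 or Pcbp2). At 1000 TPM or more it was 13.9% of 108 genes, and neither ferritin gene.

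**Figure D3:**
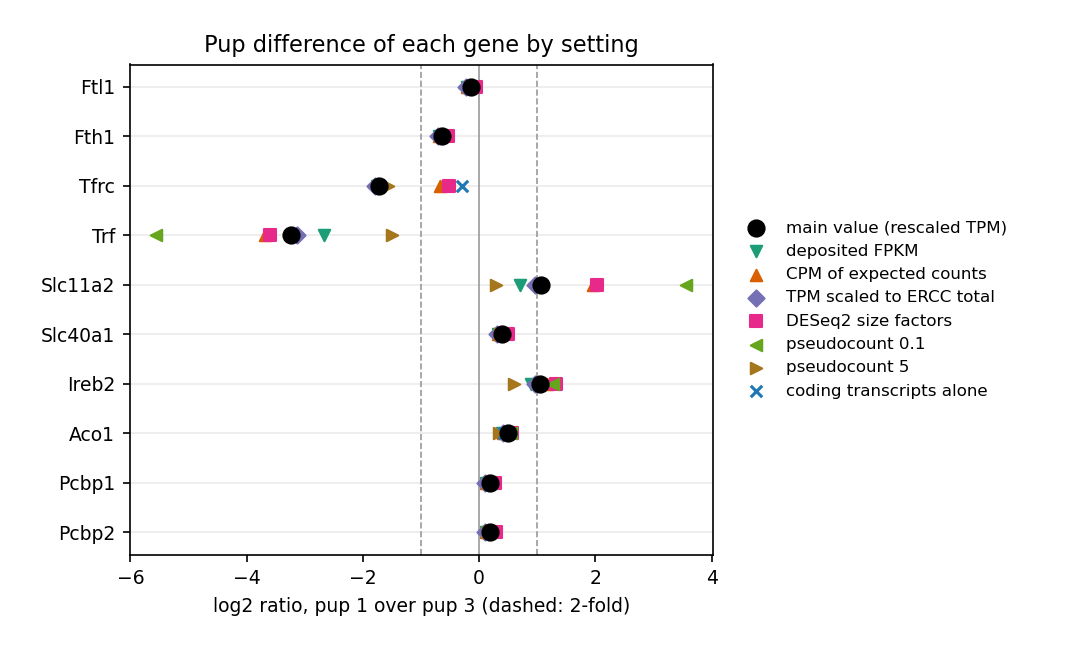
Log2 ratio of pup 1 over pup 3 for each of the 10 genes, with the main value in black and other scalings, pseudocounts and a transcript restriction as coloured symbols; dashed lines mark 2-fold. No gene changes sides of 0, Tfrc moves to within 2-fold (-0.30 to -0.68) in 3 of the settings drawn, and Trf stays past 2-fold in every setting drawn.

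The direction of all 10 genes held under every scaling, pseudocount and transcript setting tried, but the size for Tfrc did not. Its log2 ratio was -0.68 by CPM, -0.54 with TMM factors and -0.51 with DESeq2 size factors, none of which is per length. Ireb2 and Slc11a2, just past 2-fold in the main setting, fell under it with FPKM (0.89 and 0.70) and with TPM scaled to the ERCC spike-in total (0.97 and 0.96). Slc11a2 also fell under it with deposited TPM (0.97). For Slc11a2, at 97 counts against 0, the nearness to 2-fold comes from the pseudocount of 1: with 0.1 its log2 ratio was 3.57.

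The wider pathway was then counted by role, in lists chosen with earlier results of these data known. Of 91 further iron and heme genes, 45 (49.5%) were detected in both pups, 24 in 1 pup and 22 in neither. Of the 68 with enough counts, 20 (29.4%) were at least 2-fold higher in pup 1 and 18 (26.5%) at least 2-fold higher in pup 3, shares near those of all genes.

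**Figure D4:**
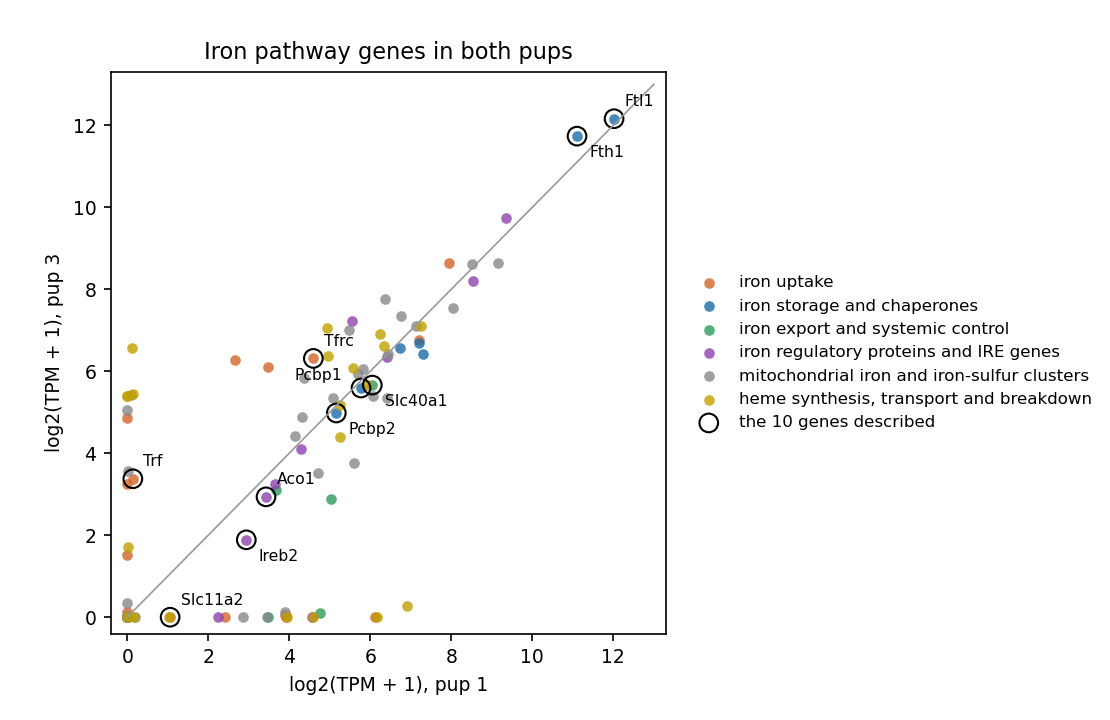
Each iron pathway gene by its level in pup 1 (x axis) and pup 3 (y axis), both as log2(TPM + 1), coloured by list, with the 10 described genes ringed and named; the line marks equal levels. Genes of high level lie near the line, and genes along an axis were at or near 0 in the other pup.

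Among 22 matched uptake genes, the described ones included, 6 were detected in both pups, beside 37.8% of all 21461 protein-coding genes. Another 4 were detected in pup 1 alone, 4 in pup 3 alone and 8 in neither. Of the 13 with enough counts, 5 were at least 2-fold higher in pup 1 and 6 in pup 3. That is 84.6% in either direction, beside 62.7% of all 12300 genes with enough counts. The most abundant were Snx3, a sorting nexin that recycles the transferrin receptor, with 245 TPM in pup 1, against 397 TPM in pup 3, and Slc22a17, a lipocalin receptor, with 147 TPM in pup 1 and 108 TPM in pup 3. Rab12, a GTPase of transferrin receptor traffic, had 5.33 TPM in pup 1 and 76.0 TPM in pup 3. Exoc6 (3750 counts), Slc39a8 (996) and Scara5 (332), the last of which binds ferritin, were counted in pup 1, against 0 in pup 3. Cybrd1 (808 counts) and Steap3 (611), both ferric reductases, were counted in pup 3, with 0 in pup 1. Uptake genes detected in 1 pup alone were found for each pup, Slc11a2 and Trf among them. Those with enough counts passed the minimum through 1 pup, a filter that favours a difference. The 13 genes are too few to set against the share of all genes.

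Of 8 storage and chaperone genes, 7 were detected in both pups and 0 of the 7 differed 2-fold. Ftl1, Fth1, Pcbp1 and Pcbp2, described above, are among the 7. Of protein-coding genes with enough counts, 60.5% differed so between 10 and 100 TPM, 28.2% between 100 and 1000 TPM and 13.9% at 1000 TPM or more. These shares include genes seen in 1 pup alone. Of the 8931 nuclear genes detected in both pups, 45.8% differed 2-fold. The 7 genes lay across these ranges of level. Ncoa4, the receptor that delivers ferritin to lysosomes, had 155 TPM in pup 1, against 85.1 TPM in pup 3. Of 11 export and systemic control genes, 3 were detected in both pups, and 3 of 5 with enough counts were at least 2-fold higher in pup 1 and 0 in pup 3. Over the 12300 genes with enough counts the shares were 34.7% and 27.9%. Heph and Hfe passed the count minimum through pup 1 alone, and 5 genes are too few to set against these shares. Cp, the ferroxidase ceruloplasmin, had 31.8 TPM in pup 1 and 6.43 TPM in pup 3. Heph, its membrane-bound relative hephaestin, had 939 counts in pup 1, against 0 in pup 3, and Hfe, the haemochromatosis protein, 908 counts in pup 1 and 1 in pup 3. Neo1 had 11.7 TPM in pup 1 and 7.55 TPM in pup 3. Hamp, which encodes the liver hormone hepcidin, was at 0 in both pups.

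Of 10 regulator and element-bearing genes, 8 were detected in both pups. Fbxl5, the iron-sensing F-box protein that marks IRP2 for degradation, had 83.7 TPM in pup 1 and 80.1 TPM in pup 3, far above Ireb2 in TPM in both. Its complex partners differed more: Skp1a had 656 TPM in pup 1, against 851 TPM in pup 3, and Cul1 45.7 TPM in pup 1 and 148 TPM in pup 3. Alas2, the erythroid enzyme of heme synthesis, had 909 counts in pup 1, against 0 in pup 3, and Cdc14a 324 counts in pup 1 and 0 in pup 3. Among the further genes of these lists, Alas2 and Bola3 held a UTR match with all 5 pairs. Alas2 and the globin genes, both erythroid, lay in opposite directions between the pups.

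Of 29 matched genes of mitochondrial iron and iron-sulfur clusters, 19 were detected in both pups, with 6 at least 2-fold higher in pup 1 and 6 in pup 3 among 24 with enough counts. That is 50% in either direction, beside 62.7% of all 12300 genes with enough counts. Cisd1, an outer-membrane cluster protein, had 565 TPM in pup 1, against 395 TPM in pup 3, and Ciapin1, of cytosolic cluster assembly, 361 TPM in pup 1 and 388 TPM in pup 3. Nfu1, a cluster carrier, had 264 TPM in pup 1, against 185 TPM in pup 3, and Hspa9, the mitochondrial chaperone, 82.0 TPM in pup 1 and 216 TPM in pup 3. Slc25a37, the mitochondrial iron importer mitoferrin, had 1191 counts in pup 1 and 0 in pup 3. Fdx1 had 1 count in pup 1 and 583 in pup 3, Hscb 0 in pup 1 and 412 in pup 3, and Mms19 2.19 in pup 1 and 668 in pup 3.

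Of 22 heme genes, 10 were detected in both pups, with 6 at least 2-fold higher in pup 1 and 7 in pup 3 among 20 with enough counts. That is 65% in either direction, beside 62.7% of all 12300 genes with enough counts. Hmox2, the constitutive heme oxygenase, had 151 TPM in pup 1 and 135 TPM in pup 3, while Hmox1, the inducible one, had 1 count in pup 1 and 1177 in pup 3. Urod had 75.2 TPM in pup 1 and 120 TPM in pup 3, Slc48a1, a heme transporter, 80.4 TPM in pup 1, against 97.0 TPM in pup 3, and Alad 29.4 TPM in pup 1 and 133 TPM in pup 3. Heme oxygenase releases iron from heme, and of its downstream partners Blvra had 2 counts in pup 1 and 1810 in pup 3, while Blvrb went the other way, at 36.9 TPM in pup 1, against 20.0 TPM in pup 3. Uros (1104 counts), Hp (931) and Cd163 (179) were also found in pup 3, with 0 counts in pup 1 for Uros and Hp and 1 for Cd163. Slc46a1 (2748 counts), Ppox (1245), Flvcr2 (990) and Cpox (66) were found in pup 1, with 0 counts in pup 3 for all but Ppox, which had 1.24.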

How the data were processed

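The gene and transcript tables of both libraries were used as deposited, made on mm10 with annotation M4 per the deposited notes. Per the file headers, the authors give an expected count, TPM and FPKM per gene, with a posterior SD, and in the transcript tables each transcript's percent share of its gene (IsoPct). Aligner, quantifier, versions and use of strand: not given in the sources used. Symbols, biotypes and positions came from GENCODE M21 on GRCm38, the same assembly, for 42462 of 43346 mouse genes (98.0%).

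TPM was rescaled to a common total over 43309 nuclear genes, leaving out mitochondrial genes and spike-ins, so 88.6% of deposited TPM remained for pup 1 and 89.6% for pup 3. Detection meant an expected count of at least 5. Log2 ratios are pup 1 over pup 3 with a pseudocount of 1. A 2-fold difference was counted among nuclear genes reaching 50 expected counts in 1 library or more, and a 0 was taken as 3 counts for folds. Intervals are exact at 95% and cover counting error only. Near-identical copies were sought with BLAST 2.17.0 at 90% identity over 200 nt. The 2-fold count was tested on simulated data. No test between pups was possible.

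The members and lists were chosen with earlier results of these data known. Named besides the members were the 4 genes of highest mean TPM in each list and genes with at least 50 counts in 1 pup and under 5 in the other. Some genes that this rule names are left out of the text. Other genes, such as Ftmt, Hamp, Pcbp3 and the marker genes, were named as members of the lists or as paralogs. Alternatives were other detection limits (1, 10 and 1 TPM), thinning of pup 1 to the depth of pup 3, pseudocounts of 0.1 and 5, 4-fold, no count minimum, deposited TPM and FPKM, CPM, the ERCC total, TMM factors (edgeR 4.0.16) and DESeq2 1.42.0 size factors on rounded expected counts, and each library alone. The restriction to coding transcripts and the addition of copies by sequence were chosen after seeing the data. Python 3.11.15 and R 4.3.3 were used.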

Additional observations from a re-analysis of the deposited data

How the results depend on the processing

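The number of described genes at least 2-fold apart was 4, and became 2 with FPKM, 2 with TPM scaled to the ERCC total, 2 with a pseudocount of 5 and 1 at 4-fold (Trf); it was 3 or 4 under the other settings. FPKM, the ERCC scaling and the pseudocount of 5 each lost Ireb2 and Slc11a2. Deposited TPM lost Slc11a2. CPM, TMM, DESeq2 and coding transcripts alone lost Tfrc. TMM moved the median log2 ratio of all genes detected in both pups by 0.10, DESeq2 by 0.13 and coding transcripts by 0.12, none of which turned a described gene's direction. The number detected in both pups stayed at 8 or 9 under the limits tried. The mean ferritin level of 7166 TPM was 6387 with deposited TPM, 7271 with annotated Ftl and Fth copies, 7281 with copies by sequence, and 6346 to 7986 with 1 library left out. The log2 ratio of Fth1 over Ftl1, -0.67, was -0.84 in expected counts and -0.91 to -0.43 with 1 library left out. No paired analysis was possible because the 2 libraries form 1 group. With 1 library of 13 pg per pup, a gene at 0 in a pup is not shown to be absent from that tissue. Differences between pups were common among genes below 100 TPM that had enough counts.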
